A study of Mus musculus with 45 samples.

Results

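Transcripts within introns were the 300 transcripts of the deposited transcript table that the authors' classification of the unfiltered assembly placed in the category genic_intron, out of 276608 transcripts in the table (0.108%). The unfiltered assembly of 1883390 transcripts held 12073 of that category, none of them with a single exon. The members were assembled from mouse cells on the way from neural progenitors to induced pluripotent stem cells, read as long cDNA on Oxford Nanopore flow cells. An intron is the part of a primary transcript that splicing removes, and most intronic RNA is short-lived. A spliced transcript lying wholly inside an intron can be a gene of its own, nested in its host, or a fragment of the host's primary transcript. CAGE peaks mark capped RNA starts, and the A-rich stretches of introns are known places where an oligo(dT) primer can start cDNA synthesis.

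The labels name 2 library methods: 22 libraries held unamplified cDNA from poly(A)-enriched RNA (R9 flow cells), and 23 held PCR-amplified cDNA (R10 flow cells). For the R10 libraries the labels disagree on the input: the protocol says total RNA and the molecule field says poly(A) RNA. The progenitors all descended from O4G, an Oct4-GFP reporter line made from R1 stem cells, and the factor lines carried doxycycline-inducible OKMS or OKS together with a luciferase element. Uninduced progenitors in progenitor medium gave 4 libraries in each chemistry (in R10, 2 wild type, 1 OKMS and 1 OKS, and the same in R9). Embryonic stem cells in 2i-LIF (LIF with inhibitors of a pair of kinases, no serum) gave 2 R9 libraries (O4G and R1) and 7 R10 libraries (2 of O4G, 2 of R1c3, 2 numbered and 1 unnumbered of R1). OKMS and OKS cells in serum, LIF and doxycycline (FBS-LIF) gave 12 R9 libraries of days 2 to 20 and 8 R10 libraries of days 2 to 18. Factor cells in 2i-LIF gave 3 R9 libraries (days 14 and 20, moved at day 6) and 2 R10 libraries (day 18). From wild-type progenitors kept 2 days in the FBS-LIF mixture there were 3 libraries, 1 of them R9. The labels do not say which replicates came from separate cultures, so the p-values measure the spread between these libraries only, and whether a factor line was 1 clone is not given in the sources used here.

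The whole-table depth was 199943 to 605378 assigned reads per R9 library and 241811 to 2129779 per R10 library. The labelled states carried their defining genes: 6 stem cell genes (Pou5f1, Nanog, Zfp42, Esrrb, Dppa5a, Tdh) summed to 11001 to 13551 CPM in R10 stem cells and 14.9 to 28.0 CPM in R10 progenitors. The 6 progenitor genes (Nes, Pax6, Fabp7, Olig2, Sox9, Slc1a3) summed to 4099 to 5383 CPM in R10 progenitors and 6.12 to 41.8 CPM in R10 stem cells, with Olig2 at 0 in all 7. The 23 R10 libraries fell into 13 with an empty description field and 10 whose field held a library name. All 4 progenitor libraries were in the first set and 6 of the 7 stem cell libraries in the second, so in R10 the state and the library set cannot be told apart outside the unnumbered R1 library.

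The members were short and simple. They had 2 exons in 263 cases (87.7%), 3 in 31, 4 in 5 and 5 in 1, and a median length of 950 bases (245 to 7079). Over all transcripts of the table the share with 2 exons was 10.3%, and it was 76.7% of the antisense and 63.3% of the intergenic transcripts. An open reading frame was called as coding in 59 members (19.7%), against 83.6% of all transcripts. The start lay within a CAGE peak in 124 members (41.3%), against 81.4% of all transcripts, 91.0% of full-splice matches, 52.1% of intergenic, 38.5% of antisense and 29.1% of genic transcripts. The source of the CAGE peaks is not given in the sources used here. Of the 20 genomic bases after the transcript end, a median of 25% were A in the members and 20% over all transcripts, with a highest member at 55%. The poly(A) motif AATAAA was the one listed for 107 members (35.7%), against 53.0% of all transcripts.

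**Figure D1:**
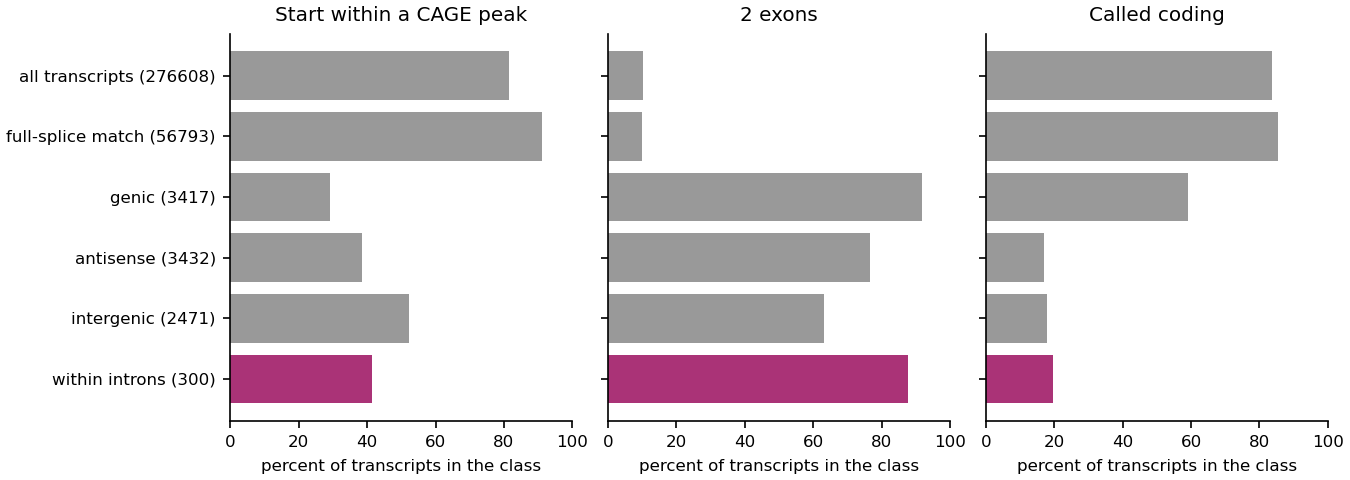
Share of transcripts (percent, x axis) whose start lies within a CAGE peak, that have 2 exons, or that are called coding, by structural category (y axis). The members (genic_intron, 300 transcripts) stand at 41.3%, 87.7% and 19.7%, close to the antisense class (38.5%, 76.7% and 17.0%) and far from full-splice matches for CAGE (91.0%).

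Each member lay whole in 1 intron of its host in GENCODE M21, and the hosts were 234 genes. The host was protein-coding for 251 members, antisense for 20 and lincRNA for 14. It was on the same strand for 287 members and on the opposite strand for 13. A same-strand host was taken wherever there was any, so this split follows in part from the rule. The intron was the first of its host transcript for 163 members, of which 32 had hosts with no other intron, and its median length was 22037 bases. A member spanned a median of 14.1% of it. The members formed 235 assembly groups. In all, 29 members overlapped an annotated exon of some gene and 45 overlapped a RefSeq gene of like size. Among these, a pair inside Ndufaf2 lay in the lncRNA gene Gm41055 and a pair inside Sept9 in Gm39478. Members of 1 intron share reads and are not independent of each other.

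For a few members the start lay close to a RefSeq start on the same strand, and these promoter windows are shown since the members below them fell from progenitors to stem cells in R10. Each window covers 250 bases before and 50 after the RefSeq start (RefSeq, GRCm38.p6), read 5′ to 3′ on the minus strand, and capitals mark the bases from the member's own start on. The windows are chr11:117266135-117266434 for Gm39478, where the 670-base Sept9 intron transcript started 34 bases after the RefSeq start, chr13:108044337-108044636 for Gm41055, where the 585-base Ndufaf2 intron transcript started 38 bases after it, and chr8:69625126-69625425 for Zfp868, where the 600-base member of its own first intron started 34 bases before it.
Gm39478: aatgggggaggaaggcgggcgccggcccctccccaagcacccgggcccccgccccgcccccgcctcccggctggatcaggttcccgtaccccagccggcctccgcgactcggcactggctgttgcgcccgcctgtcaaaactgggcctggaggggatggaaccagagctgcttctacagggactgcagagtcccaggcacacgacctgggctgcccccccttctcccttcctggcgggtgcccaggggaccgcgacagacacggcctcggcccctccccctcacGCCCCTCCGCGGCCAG
Gm41055: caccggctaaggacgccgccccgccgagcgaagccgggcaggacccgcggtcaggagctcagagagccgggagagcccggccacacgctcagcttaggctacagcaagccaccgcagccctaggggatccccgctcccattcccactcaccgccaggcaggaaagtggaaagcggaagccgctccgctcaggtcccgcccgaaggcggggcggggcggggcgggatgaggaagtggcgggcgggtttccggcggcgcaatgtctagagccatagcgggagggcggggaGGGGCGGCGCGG
Zfp868: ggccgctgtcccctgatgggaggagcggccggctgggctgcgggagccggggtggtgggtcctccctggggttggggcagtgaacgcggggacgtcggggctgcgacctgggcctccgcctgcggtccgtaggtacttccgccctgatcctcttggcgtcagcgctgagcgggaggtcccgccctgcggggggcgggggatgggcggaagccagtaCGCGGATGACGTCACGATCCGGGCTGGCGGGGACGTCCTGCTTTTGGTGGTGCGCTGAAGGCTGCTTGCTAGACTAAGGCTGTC
The dinucleotide CG, which reads the same on both strands, occurred 24 times in the Gm39478 window, 34 times in the Gm41055 window and 29 times in the Zfp868 window. The median over 32851 windows of that length was 7, and 20.0%, 7.73% and 12.9% of the windows held as many or more, respectively.

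The 20 genomic bases after the end, as the classification table gives them, are shown for 5 members of high level or of the largest changes, with A in capitals. The first 4 are members that were higher in R10 than in R9 (below), and the Sept9 member fell in both chemistries.
Cdk8 intron transcript: tcttcAgtttAgttAttttt
Filip1l intron transcript: gAAAggccAtcAggAtAttt
Rnf10 intron transcript: tggAgAAgAcAAAtAAAAtc
Gm14798 intron transcript: AActAgAcAAtAAAAtgtgc
Sept9 intron transcript: gAgttgcctccgtcAcAgtg
The share of A was 15% after the Cdk8 member and 35% after the Filip1l member, and 55% after the Rnf10 member. It was 50% after the Gm14798 member and 15% after the Sept9 member.

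A pair of loci held nearly all of the reads. Of 345701 reads on the members, 89.6% fell on 1 transcript of 349 bases in intron 2 of Cdk8 (chr5:146260979-146265854, plus strand, mm10), and together with a 591-base transcript in intron 1 of Filip1l (chr16:57391113-57405108, plus strand) the share was 96.7%. Cdk8 encodes the kinase of the Mediator complex, and Filip1l encodes a filamin A interacting protein-like protein. Neither member lay within a CAGE peak or was called coding. The median member had 15 reads over all 45 libraries and the lowest had 3. No R9 read fell on 99 members, no R10 read on 6, and 195 had both. Over the whole table R9 had 7958574 assigned reads and R10 had 23783367. The same split over all transcripts is not given here, so these counts do not set the members apart. The members took 0.0229% of the assigned R9 reads and 1.45% of the R10 reads, and without the Cdk8 and Filip1l members the other 298 took 210 reads of every 1000000 in R9 and 405 in R10. An R9 library listed 18 to 47 members above 0, and R10 libraries listed 23 to 168.

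The transcript level of the Cdk8 member was 11432, 11470, 15588 and 16043 TPM in the 4 R10 progenitor libraries, where TPM is reads per base of transcript scaled to 1000000 per library. In the 6 numbered R10 stem cell libraries it was between 52793 and 60351 TPM, and in the unnumbered R1 library 21550.5 TPM. All stem cell libraries lay above all progenitor libraries. The difference was 1.88 ± 0.24 (SE) in log2(TPM + 1) with an adjusted p of 2.96e-05 (limma), and 0.68 with the unnumbered library as the only stem cell library, where it was not called. In R9 the same transcript was at 16.8, 18.4, 141 and 192 TPM in progenitors and 30.3 and 53.9 TPM in stem cells, and the groups overlapped (difference -0.42 ± 1.24, adjusted p 0.889).

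The Filip1l member was at 1397 to 1755 TPM in R10 progenitors and 738 to 2023 TPM in R10 stem cells, and at 3.62 to 33.3 TPM in the same states in R9. Its R10 difference between states was -0.60 ± 0.22 (limma, adjusted p 0.0362), below the log2 change of 1 that a call required. The hosts were at other levels: Cdk8 itself had a mean of 26.6 ± 4.83 CPM (SD, n = 4) in R10 progenitors and 12.8 ± 3.76 CPM (SD, n = 7) in R10 stem cells, a fall by 1.03 in log2(CPM + 1) (limma, adjusted p 0.000826), while its intron transcript was higher. CPM is the same scaling of gene reads without a length term. Filip1l itself was at 0.317589 to 1.17 CPM in R10 progenitors.

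Each member's locus also had a row of its own in the deposited gene table, and the 2 tables did not always match. That row was never below the transcript reads, but in 265 of 1002 cases of a locus and a library with at least 5 reads in the gene row (26.4%) the transcript was listed at 0 TPM. The share was 2.69% for other genes and 11.7% for other genes with a single listed transcript. It was 13.1% in R10 progenitors, 26.3% in R10 stem cells, 36.1% in R10 factor cells of days 2 to 10 and 47.6% at day 18. The Cdk8 member was at 0 TPM in 4 R10 libraries (OKMS days 4, 6 and 10, OKS day 2), where its locus had 984 to 1743 CPM in the gene table. A member listed at 0 is therefore not shown to be absent, and the own-locus row is given beside the main results below where it passed the gene filter. A difference against an arm listed at 0 depends on the pseudocount and is no bound.

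**Figure D2:**
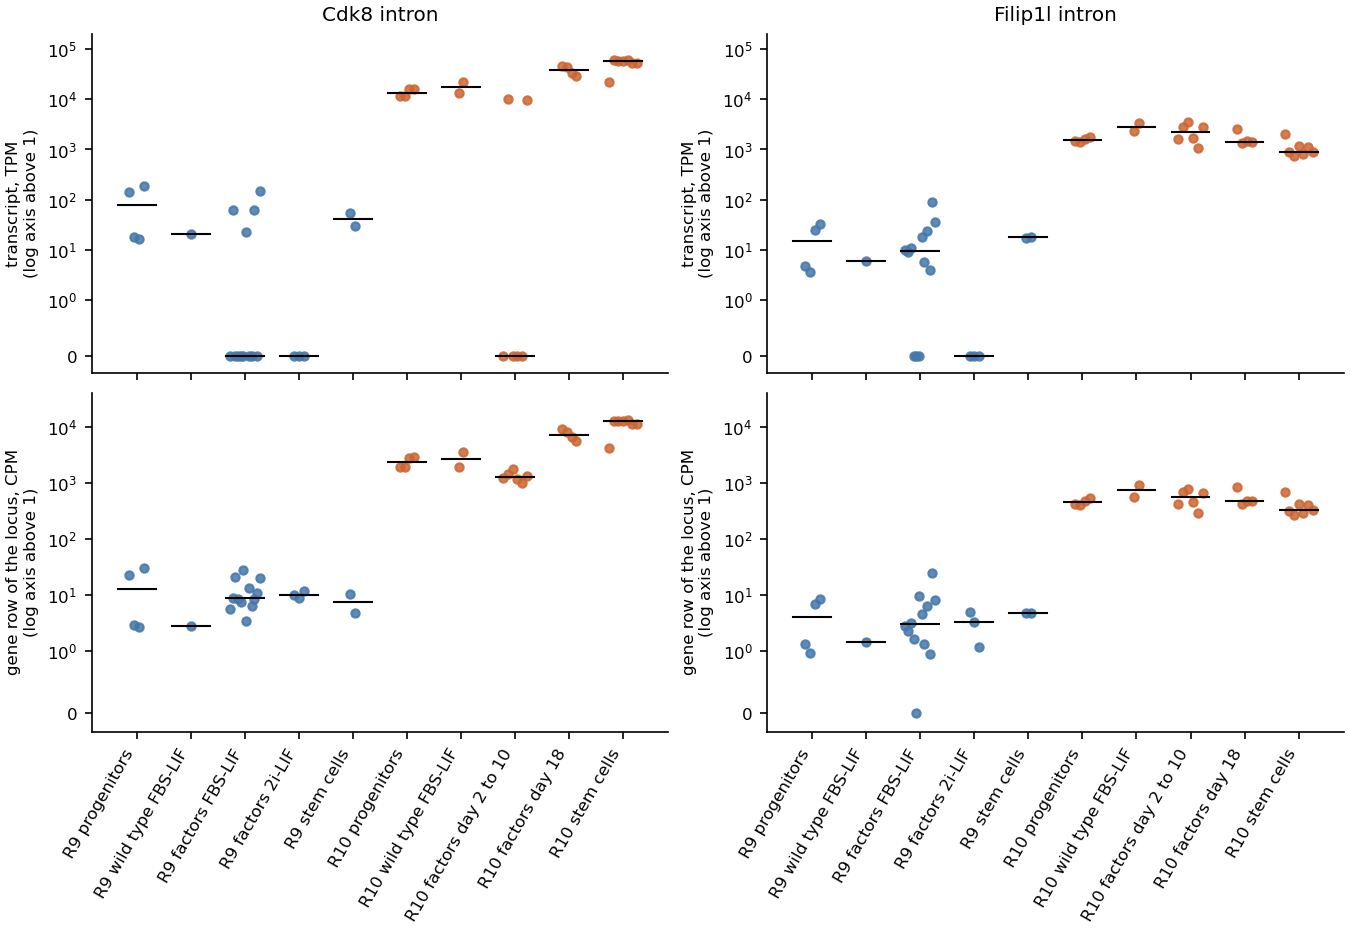
Cdk8 (left) and Filip1l (right) intron transcripts in each library (points), as transcript TPM (top) and as CPM of the gene row of the locus (bottom), on axes that are logarithmic above 1, with medians as lines. The Cdk8 locus had 2.69 to 30.4 CPM in the 22 R9 libraries and 984 to 12932 CPM in the 23 R10 libraries.

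The Cdk8 locus followed the library sets as well as the states. It had 984 to 4200 CPM in the 13 R10 libraries without a description and 5581 to 12932 CPM in the 10 with one, and 2.69 to 30.4 CPM in R9. The mitochondrial ribosomal RNA mt-Rnr1 had 281 to 977 CPM, 3795 to 6536 CPM and 63.7 to 226 CPM in those sets, and mt-Rnr2 had 256 to 4535 CPM, 7743 to 12792 CPM and 168 to 879 CPM. The Filip1l locus had 289 to 907 CPM, 261 to 841 CPM and 0 to 24.6 CPM. The part of the library set, of RNA selection or of amplification in these levels was not tested. Summed over all 300 members, the level was 15570 ± 2687 TPM in R10 progenitors (SD, n = 4) and 53342 ± 13204 TPM in R10 stem cells (n = 7). Without the Cdk8 and Filip1l members it was 371 ± 71.9 TPM and 341 ± 118 TPM, and over the members within a CAGE peak 195 ± 23.0 TPM and 136 ± 62.7 TPM, so the higher sum in stem cells rested on the pair. Over the 6 numbered stem cell libraries, which leaves out the unnumbered R1 library, the sum without the pair was 296 ± 16.5 TPM, and over the members within a CAGE peak 113 ± 16.4 TPM. The latter ran from 93.8 to 135 TPM, below the progenitors at 164 to 218 TPM. The unnumbered R1 library, the 1 stem cell library of the progenitors' own set, was above all 4 progenitors by both sums, at 274 TPM within CAGE peaks and at 605 TPM without the pair. The direction of both sums thus differed between the library sets.

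All stem cell libraries were in 2i-LIF and all progenitor libraries in progenitor medium, so state and medium cannot be told apart in either chemistry. Cell state was compared first in R10, stem cells against progenitors. Of the 300 members 67 passed the filter (1 TPM or more in 4 or more libraries), and 32 were called at an adjusted p under 0.05 with a log2 change of at least 1, beside 39.8% of all transcripts tested. A member listed at 0 in 1 state passes the filter through the other state alone, so the share is a description. There were 16 members higher and 16 lower in stem cells, with backgrounds of 23.4% and 16.4%. The share of called transcripts was 74.3% in the intergenic and 56.6% in the antisense class. Of the 32, 18 were among the 36 tested members within a CAGE peak and 14 among the 31 outside one. The same split of all transcripts is not given here. At the own loci, 29 of 67 tested rows were called (14 higher, 15 lower), beside 45.8% of all genes (22.4% higher, 23.5% lower). A fit with the unnumbered R1 library as the 1 stem cell library stays within 1 library set, with that library assumed to vary like the progenitors. It tested members with 1 TPM in only 1 library, so its counts are not set beside these. The balance of directions at the own loci depended on the stem cell libraries. With the O4G stem cells only, 33 of 93 own loci were called, 9 higher and 24 lower, beside 45.2% of all genes (20.4% and 24.8%). edgeR on the recovered reads called 35 members, 31 of them among the 32, beside 43.3% of all transcripts. R9 had less depth and 2 stem cell libraries: 49 members were tested and 9 called, 5 higher and 4 lower (11 at an unadjusted p under 0.05), beside 13.4% of all transcripts (9.75% higher and 3.66% lower). At the own loci 8 of 42 tested R9 rows were called, beside 36% of all genes. edgeR called 0 of these members in R9, with 9 at an unadjusted p under 0.05, beside 2.5% of all transcripts. Leaving out the O4G or the R1 stem cell library raised the R9 count, with the lone stem cell library assumed to vary like the progenitors. Those fits tested members with 1 TPM in only 1 library, so the counts are not set side by side.

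Transcripts called in both chemistries by limma numbered 6, each in the same direction in both. Of the R9 calls, that of Sept9 held in 5 of 12 alternatives and that of Gm20755 in 6 of 12, and edgeR made none of the 6 in R9. Those lower in stem cells lay in introns of Sept9, Gm20755 and Tmem191c. Those higher lay in introns of AU020206 and, with 2 overlapping transcripts, of Gm28836. Over the 26 members tested in both, 18 differences had the same sign (69.2%), beside 68.3% of the 42221 transcripts tested in both, and the 6 called in both stood beside 12.3% of them. Of the 13 R10 calls that were tested in R9, 12 had the same sign there (92.3%), beside 81.1% over all transcripts.

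**Figure D3:**
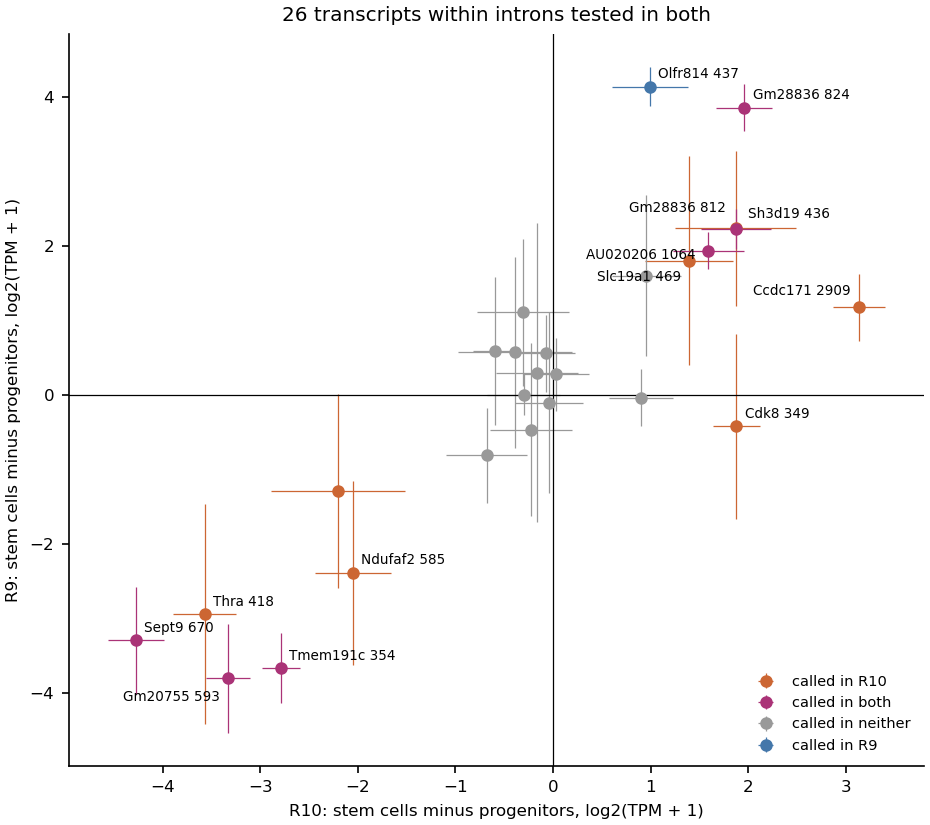
Difference between stem cells and progenitors in log2(TPM + 1) in R10 (x axis) and R9 (y axis) for the 26 members tested in both, with standard errors as bars and colours for where each was called. The 6 members called in both lie in the lower left (Sept9, Gm20755, Tmem191c) and upper right (AU020206, Gm28836 812 and 824) corners, and the Cdk8 member is at 1.88 in R10 and -0.42 in R9.

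The 670-base transcript inside Sept9 (chr11:117257249-117266150, minus strand, 3 exons, within a CAGE peak, opposite to its host in intron 2 of 11) was the largest fall in R10. Sept9 encodes a septin, a cytoskeletal GTP-binding protein. The 4 R10 progenitor libraries had 27.7, 23.8, 16.1 and 29.2 TPM, and the 7 stem cell libraries had 0.999, 0.586, 0, 0.697, 0, 0 and 0 TPM. In R9 progenitors the values were 25.9, 9.58, 21.9 and 23.5 TPM, and in R9 stem cells 0 and 3.16 TPM. The groups did not overlap in either chemistry. The fall was -4.27 ± 0.29 in R10 (limma, adjusted p 8.36e-08) and -3.29 ± 0.72 in R9 (adjusted p 0.0438). The own locus fell by 3.04 and 2.42 in log2(CPM + 1) (limma, adjusted p 5.79e-09 and 0.00958). Its sequence upstream is the Gm39478 window above.

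The 593-base transcript in intron 2 of the lincRNA gene Gm20755 (chr3:37935750-37976893, plus strand, within a CAGE peak) was at 10.9, 12.4, 7.50 and 6.59 TPM in R10 progenitors and at 4.88, 10.8, 14.9 and 33.2 TPM in R9 progenitors. It was listed at 0 in all 9 stem cell libraries, and its locus was at 0 CPM in all 9 as well. The differences were -3.33 ± 0.23 in R10 (limma, adjusted p 8.28e-08) and -3.80 ± 0.73 in R9 (adjusted p 0.0275). The own locus fell by 2.28 and 2.35 in log2(CPM + 1) (limma, adjusted p 7.18e-08 and 0.00626). Outside the progenitors it was above 0 TPM in 2 libraries, OKS day 2 in R9 and wild type in FBS-LIF in R10.

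The 354-base transcript in the only intron of the Tmem191c host transcript (chr16:17280351-17280801, plus strand, outside CAGE peaks, called coding) had 5.23 to 6.93 TPM in R10 progenitors and 8.17 to 22.3 TPM in R9 progenitors, and 0 TPM in all stem cell libraries. The differences were -2.79 ± 0.20 (limma, adjusted p 1.08e-07) and -3.67 ± 0.47 (adjusted p 0.00605). It also overlaps an annotated exon of Pi4ka. Its own locus stayed above 0 in stem cells, at a mean of 0.422 ± 0.393 CPM in R10 (SD, n = 7), and was not called in R9 (-1.06, adjusted p 0.0844).

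Among the members higher in stem cells, the 255-base transcript in the Gm14798 intron (chrX:94045034-94065493, plus strand, outside CAGE peaks) had the largest rise. It was listed at 0 in all 8 progenitor libraries. The R10 stem cell libraries had 17.3, 25.8, 27.5, 27.7, 27.8, 44.0 and 68.3 TPM, and the R9 stem cell libraries 0 and 24.9 TPM. The R10 difference was 5.01 ± 0.31 (limma, adjusted p 3.86e-08), and the transcript failed the R9 filter. Its locus rose by 3.85 in R10 and by 1.92 in R9 in log2(CPM + 1) (limma, adjusted p 2.99e-09 and 0.0292).

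The antisense gene Gm28836 held 5 members in its intron on chromosome 1, on the minus strand and all within a CAGE peak, some overlapping an exon of Gsta3, a glutathione S-transferase gene. The 824-base member (chr1:21253285-21256509, 4 exons) was at 0 in all 8 progenitor libraries, at 1.62 to 6.90 TPM in R10 stem cells (median 2.72) and at 17.8 and 10.3 TPM in R9 stem cells. The differences were 1.96 ± 0.29 in R10 (limma, adjusted p 0.000101) and 3.86 ± 0.32 in R9 (adjusted p 0.00111). The 812-base member rose by 1.88 ± 0.36 and 2.24 ± 0.27 (limma, adjusted p 0.000808 and 0.00489), and the 465- and 643-base members were called in R10. The R9 rise of the 812-base member matches 1 or 2 reads in each R9 stem cell library. The members share reads of 1 locus, which had 3.11 to 8.99 CPM in R10 stem cells, 11.4 and 13.0 CPM in R9 stem cells and 0 in all progenitor libraries.

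The 1064-base transcript in intron 2 of the lincRNA gene AU020206 (chr7:75773016-75774124, minus strand) was at 0 in all 8 progenitor libraries, at 0.513 to 5.66 TPM in R10 stem cells and at 1.97 and 3.97 TPM in R9 stem cells. The differences were 1.59 ± 0.36 (limma, adjusted p 0.0029) and 1.94 ± 0.24 (adjusted p 0.00569). The R9 stem cell values stand for 1 and 2 reads. At its own locus neither chemistry was called (0.40, adjusted p 0.327, and 0.58, adjusted p 0.41), and the mean there was 0.917 ± 0.942 CPM in R10 progenitors (SD, n = 4). The transcript row and the locus row thus differ for this member.

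**Figure D4:**
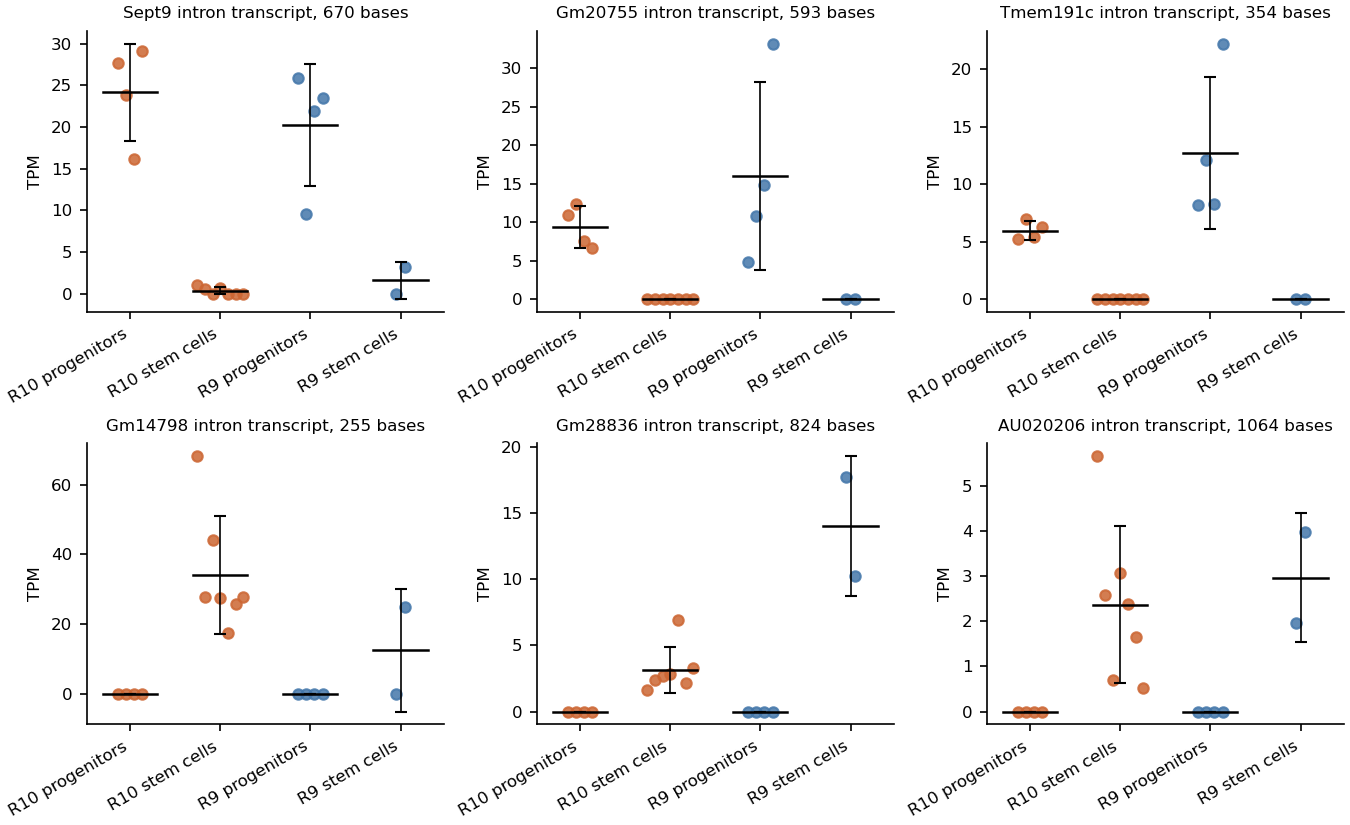
TPM (y axis) of 6 members in the R10 and R9 progenitor and stem cell libraries (points), with mean and SD. The Sept9, Gm20755 and Tmem191c members are high in progenitors, and the Gm14798, Gm28836 and AU020206 members are at 0 in all 8 progenitor libraries.

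Other members were called in 1 chemistry only. The 2909-base transcript in intron 6 of Ccdc171 (chr4:83560513-83563617, plus strand), a coiled-coil domain gene, was at 0 to 0.874 TPM in R10 progenitors and 9.04 to 20.3 TPM in R10 stem cells (3.13 ± 0.27, limma, adjusted p 7.27e-07). In R9 it was at 0 to 1.35 TPM and at 2.16 and 3.63 TPM (1.18 ± 0.46, adjusted p 0.246), and its R9 locus was called (1.47, limma, adjusted p 0.039). The 1859-base transcript in intron 1 of Vps26c, an endosomal sorting gene, was at 0 to 0.684 TPM in R10 progenitors and 2.88 to 9.72 TPM in R10 stem cells (2.29 ± 0.30, limma, adjusted p 3.45e-05), and at 0 in all 6 R9 libraries of these states. Its R10 locus rose by 2.37 in log2(CPM + 1) (limma, adjusted p 3.03e-06). In R9, the 437-base transcript in an intron of the olfactory receptor gene Olfr814 was at 19.1 and 14.5 TPM in stem cells and 0 in progenitors (4.14 ± 0.26, limma, adjusted p 0.00076), and its R9 locus rose by 2.22 (adjusted p 0.000785). Its R10 stem cell libraries had 0 to 4.49 TPM (1.00 ± 0.39, adjusted p 0.0504).

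Host genes were then set beside their members. Of the 32 members called in R10, the host was called in the same direction for 7, in the opposite direction for 2, not called for 11 and not tested for 12, where 45.8% of all genes were called. The same-direction hosts included Slc27a1 (a fatty acid transporter), Thra (thyroid hormone receptor alpha), Spire1 (an actin nucleator), Spon1 (a matrix protein of axon guidance), and Tecr (a fatty acid elongation enzyme), which fell, and Nipal3, which rose. Slc27a1 itself was at 204 to 231 CPM in R10 progenitors and 13.6 to 18.7 CPM in stem cells. Its 2961-base intron transcript was at 8.13, 9.94, 18.5 and 4.71 TPM in R10 progenitors and 0 TPM in the 7 stem cell libraries (-3.36 ± 0.29, limma, adjusted p 8.63e-07), and its locus fell by 3.41 (adjusted p 2.75e-07). It had no R9 read, while the host had a mean of 145 ± 54.0 CPM in R9 progenitors (SD, n = 4).

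Thra was at 94.1 to 109 CPM in R10 progenitors and 14.2 to 28.2 CPM in stem cells, and its 418-base intron 8 transcript was at 4.01 to 17.6 TPM and 0 TPM (-3.57 ± 0.33, limma, adjusted p 1.41e-06). The host difference was -2.31 (limma, adjusted p 9.7e-09). Spon1 fell by 6.27 with its member (-2.30 ± 0.36), and Spire1 by 2.99 with its member (-2.58 ± 0.30). For these members, fewer reads from the host's primary transcript and less RNA of a separate transcript cannot be told apart. The hosts that moved the opposite way were Cdk8, above, and Morc3, a chromatin ATPase gene, which rose by 2.63 in log2(CPM + 1) (limma, adjusted p 1.93e-07) while its 4327-base member fell by 1.78 (adjusted p 8.58e-06). By edgeR on the gene table, 8 hosts were called in the same direction and 1, Morc3, in the opposite, where 49.3% of all genes were called, and the Cdk8 fall, near a log2 change of 1 by limma, was not called.

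Zfp868, a zinc finger gene, had a host difference of -0.04 (limma, adjusted p 0.9), while the 600-base member at its promoter window was at 1.54, 8.18, 7.42 and 4.65 TPM in R10 progenitors and 0 in stem cells (-2.53 ± 0.31, adjusted p 2.23e-05). The 585-base member in Ndufaf2, a mitochondrial complex I assembly factor gene, was at 6.33, 6.29, 5.43 and 3.82 TPM in R10 progenitors and at 0 to 2.16 TPM in stem cells (-2.05, limma, adjusted p 0.000828). Its locus fell by 1.05 (adjusted p 0.00069), and its host differed by -0.44 (adjusted p 0.00269). In R9, of the 9 called members 2 hosts were called in the same direction, 1 in the opposite, 1 not, and 5 were not tested, where 36% of all genes were called. The 2055-base member of Slc15a2, a peptide transporter gene, fell by 1.28 ± 0.24 (limma, adjusted p 0.0247) beside a host fall by 4.84. That call held in 5 of 11 alternatives and was not made by edgeR (adjusted p 0.253). In each of the 4 R9 progenitor libraries the member had 1 read. Of the lists of pluripotency, neural progenitor, chromatin and splicing regulator and long noncoding genes, 1 gene, the splicing factor gene Hnrnpc, was a host.

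Over the reprogramming days, the R9 time course tested 102 members and limma called 0, with 20 at an unadjusted p under 0.05, beside 0.129% of all transcripts. edgeR called 3, beside 1.61%. At the own loci limma called 2 of 116 tested rows, both falls, beside 10.7% of all genes. edgeR called 4, 3 higher and 1 lower, beside 23.6% of all genes (12.9% and 10.7%). The Gm20755 locus had 4.04 and 8.43 CPM in the OKMS and OKS progenitors and 0 from day 4 on (largest difference -2.79 ± 0.49, limma, adjusted p 0.0154). The Il11ra1 locus, in an intron of an interleukin 11 receptor gene, fell by 2.92 ± 0.44 (adjusted p 0.0167). The time course and the R9 state comparison share the OKMS and OKS progenitor libraries.

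**Figure D5:**
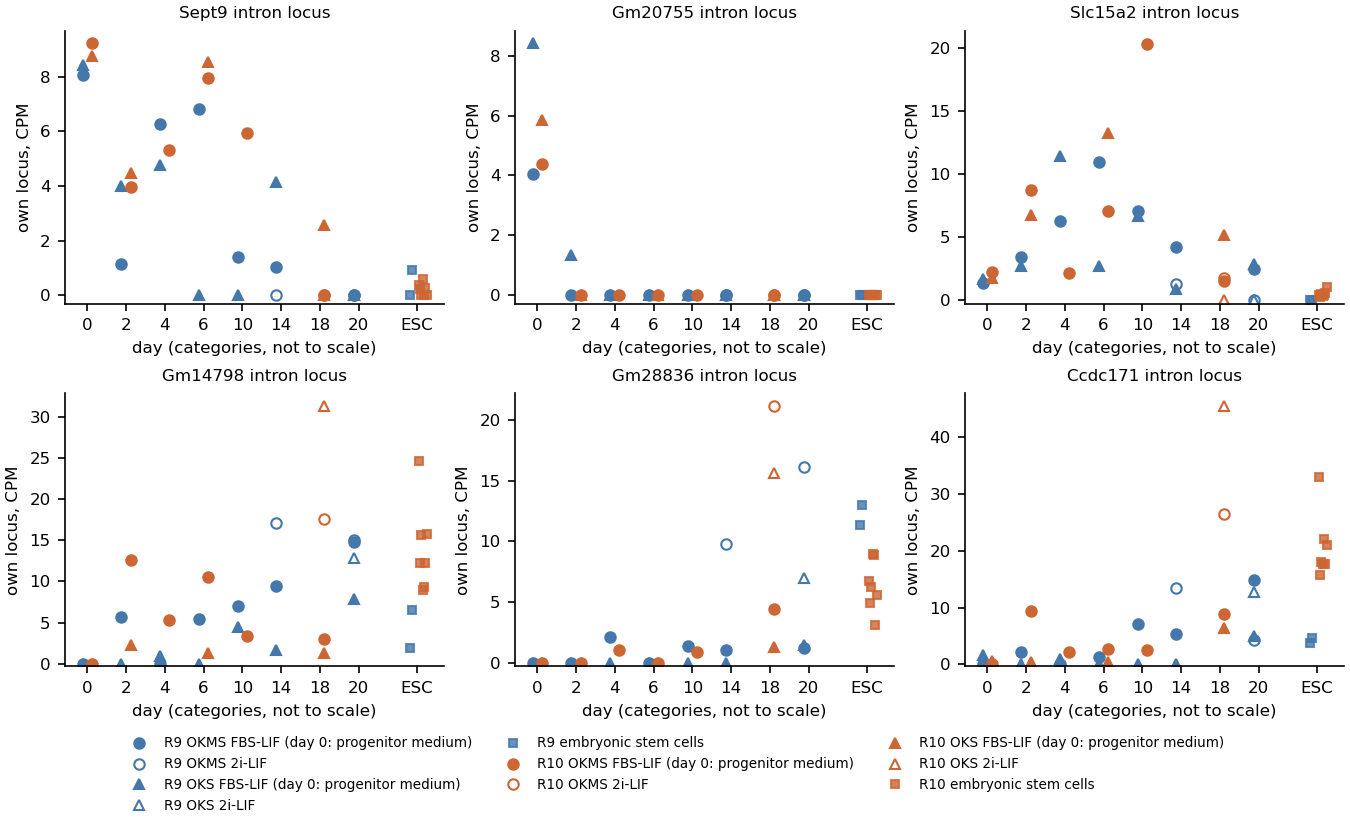
CPM of the gene row of 6 members' loci (y axis) by day and in embryonic stem cells (x axis, categories), 1 point per library, with OKMS as circles and OKS as triangles, R9 blue and R10 orange, FBS-LIF filled and 2i-LIF open. The Gm20755 locus is at 0 from day 4 on, the Slc15a2 locus is highest at 20.4 CPM in the R10 OKMS library of day 10, and the Gm28836 locus is above 6 CPM at days 14 to 20 in the open points alone.

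The Slc15a2 member had 1.04 to 1.92 TPM in R9 progenitors, 1 read in each library, and 0.928 to 2.25 TPM in R10 progenitors. In factor cells of days 2 to 10 in FBS-LIF it was at 3.33 to 14.0 TPM in R9 and 2.28 to 22.0 TPM in R10. It was at 0 TPM in all 9 stem cell libraries. Days 2 to 10 thus lay above both ends in both chemistries, in R10 narrowly (2.28 against 2.25 TPM at the nearest). So did the wild-type libraries in FBS-LIF, with 3.74, 6.30 and 12.3 TPM. At so few reads this order is a description only, and the R9 time course of the member was not called. The Sept9 locus had 8.08 and 8.43 CPM in R9 OKMS and OKS progenitors, 0 to 6.82 CPM at days 2 to 14 and 0 at day 20.

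The media were compared in 5 pairs of the same chemistry, system and day. The FBS-LIF mixture held doxycycline, and whether the 2i-LIF cells had it is not stated here. Medium and factor induction therefore cannot be told apart in these pairs. Of 21 tested members 1 was called, beside 1.84% of all transcripts. This was the 974-base transcript in an intron of Gm47283 on chromosome Y (chrY:90812039-90813467), with 2.21, 2.74, 8.16, 5.40 and 7.43 TPM in FBS-LIF and 0 in all 5 2i-LIF libraries (-2.51 ± 0.50, limma, adjusted p 0.0297). Its own locus was not called by limma (-1.54 ± 0.55, adjusted p 0.0671) and was called by edgeR (-1.87, adjusted p 0.0473). For the transcript, 4 of the 5 fits that left out a pair gave 0 calls, as did edgeR (beside 3.14% of all transcripts). How reads of near-identical X and Y copies were assigned is not given in the sources used here. At the own loci 3 of 36 tested rows were called, beside 12.3% of all genes. The Gm28836 locus was higher in 2i-LIF (2.39 ± 0.44, limma, adjusted p 0.00127), with 9.77, 16.1, 6.98, 21.2 and 15.6 CPM there and 1.06, 1.23, 1.44, 4.45 and 1.28 CPM in the paired FBS-LIF libraries. The Gm14798 locus was higher by 1.50 ± 0.49 (adjusted p 0.0459), and the Slc19a1 locus was lower by -2.29 ± 0.51 (adjusted p 0.00505).

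Wild-type progenitors held 2 days in FBS-LIF were set against untreated ones in R10, 2 libraries against 2. The untreated pair also serves in the state comparison. Of 112 tested members 19 were called, 10 higher and 9 lower, beside 15.7% of all transcripts (7.83% and 7.84%). By edgeR the count was 2 (beside 2.4%). The limma count depended on which library was left out. Such a fit has a lone library in its arm and a looser filter, so its counts are not set beside these. The share of all transcripts called in it is not given here. Median centring gave 7 calls, 2 higher and 5 lower, and the share of all transcripts in that fit is not given here. FBS-LIF replicate 2 stood apart, with 168 members above 0. At the own loci 12 of 98 rows were called, beside 26.8% of all genes. Markers of astrocytes (Gfap, Aqp4, Aldh1l1, S100b) summed to 42.6 and 93.3 CPM in these 2 R10 wild-type progenitor libraries and to 1188 and 3057 CPM in the 2 FBS-LIF libraries, and their part in these differences was not tested.

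The 409-base member of Gm26787 (chr9:36768345-36771653, plus strand, within a CAGE peak) was at 1.55 and 0 TPM in wild-type R10 progenitors and 23.5 and 42.2 TPM in FBS-LIF (4.35 ± 0.62, limma, adjusted p 0.045). The R9 wild-type library in FBS-LIF had 26.4 TPM, and R9 factor cells had 7.22 to 41.8 TPM on days 2 to 6. Its locus was called as well (2.63 ± 0.46, limma, adjusted p 0.0125). The 592-base Arhgef4 member and the 364-base Nfat5 member were at 0 in both progenitor libraries and at 4.86 and 13.0 TPM, and 5.92 and 10.6 TPM, in FBS-LIF. They rose by 3.18 ± 0.58 and 3.16 ± 0.47 (limma, adjusted p 0.045 for both), and the Arhgef4 locus rose by 1.75 (adjusted p 0.0411). Their hosts, a guanine nucleotide exchange factor gene and a gene for an osmotic stress transcription factor, rose by 2.67 (limma, adjusted p 0.0183) and 2.75 (adjusted p 0.00205).

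Falls in FBS-LIF were the members of Il11ra1 (351 bases, -5.42 ± 0.34), Ccr9 (-4.42 ± 0.48), Slc19a1 (-3.61 ± 0.47) and Sept9 (670 bases, -2.33 ± 0.43), among others. The 351-base Il11ra1 member was at 0 TPM in every library outside the progenitors and stem cells, while its locus had a mean of 13.8 ± 0.924 CPM in FBS-LIF (SD, n = 2). That locus was not called (-0.87 ± 0.29, limma, adjusted p 0.0704). The Ccr9 locus was called (-2.17 ± 0.46, adjusted p 0.0213), with a mean of 2.52 ± 0.307 CPM in FBS-LIF, and so was the Sept9 locus (-1.91 ± 0.52, adjusted p 0.0436). The Slc19a1 locus was not (-0.47 ± 0.53, adjusted p 0.549).

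R9 and R10 were compared within the 12 conditions present in both. The summed level of the members was lower in R9 in 12 of 12 conditions, by -2.20 to -6.90 in log2 and by -4.83 on average. Without the Cdk8 and Filip1l members the average was -0.56. Of 28 tested members 10 were called, 2 higher in R9 and 8 higher in R10, beside 22% of all transcripts (11.1% and 10.9%). Centring each library on its median gave 17 calls, all higher in R10, and moved the median of all transcripts from -0.12 to -0.70. At the own loci 25 of 46 rows were called, 1 higher in R9 and 24 higher in R10, beside 12.1% of all genes (5.73% and 6.36%). Of the 16 tested members within a CAGE peak 4 were called, and of the 12 outside one 6, all 6 higher in R10. No share of all transcripts is given here for this split or for the 17 calls after centring. These counts therefore do not set the members apart from the whole table.

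The Filip1l member differed by -6.71 ± 0.33 (limma, adjusted p 3.34e-13) and the Cdk8 member by -6.22 ± 0.87 (adjusted p 7.85e-06). The Cdk8 value includes the R10 libraries listed at 0 TPM, and at the own loci the differences were -8.15 ± 0.34 for Cdk8 and -6.53 ± 0.27 for Filip1l (limma, adjusted p 2.21e-16 and 2.19e-16). The Filip1l host was called higher in R9, by 1.44 (limma, adjusted p 0.000498), and the Cdk8 host difference of 0.64 (adjusted p 0.00112) was below the log2 change that a call required. The 1418-base Rnf10 member was at 2.36 to 7.17 TPM in R10 progenitors and 0 in R9 progenitors and stem cells (-2.25 ± 0.37, limma, adjusted p 5.61e-05), while its host, a ring finger gene, differed by 0.93 (adjusted p 4.05e-08) and was not called. The Kat7 (-1.78 ± 0.42), Gm14798 (-1.59 ± 0.49), Hnrnpc (-1.21 ± 0.21) and Oxr1 (-1.05 ± 0.26) members were also higher in R10, and the Gm26787 member was higher in R9 (1.02 ± 0.39, limma, adjusted p 0.044). The Gm26787 call held in 7 of 19 alternatives and was not made by edgeR (0.78, adjusted p 0.33). By limma the own loci of Rnf10 (-2.46), Kat7 (-1.70) and Hnrnpc (-1.87) were called as well, and those of Gm14798 (-0.73), Oxr1 (-0.94) and Gm26787 (0.50) were not. By edgeR the loci of Gm14798 (-1.35, adjusted p 0.0165) and Oxr1 (-2.57, adjusted p 0.0044) were also called.

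One locus went clearly the other way. The antisense locus in intron 3 of Invs, a ciliary protein gene (245-base member, chr4:48343582-48354085, minus strand, outside CAGE peaks), had 2.68 to 21.5 CPM in all 22 R9 libraries. In R10 it was at 0 CPM in all but 1 library, OKS day 18 in 2i-LIF with 1.56 CPM. The locus difference was 3.11 ± 0.24 in log2(CPM + 1) (limma, adjusted p 3.96e-11). The transcript was listed at 0 TPM in all R10 libraries and at 0, 26.2, 36.0 and 16.1 TPM in R9 progenitors and 34.2 and 17.3 TPM in R9 stem cells.

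The state difference itself was tested for a difference between chemistries. Of 153 members 11 were called, 9 with a higher value in R9 and 2 with a lower one, beside 4.42% of all transcripts. Slc27a1 differed by 3.36, Olfr814 by 3.15, Spon1 by 2.30, Gm28308 by 2.23, the 824-base Gm28836 member by 1.90, Ccdc171 by -1.95 and Vps26c by -2.29 on the log2(TPM + 1) scale. The Slc27a1, Spon1, Gm28308 and Vps26c members were at 0 TPM in all 6 R9 libraries of these states, so their values are the R10 difference with its sign turned and hold no R9 measurement.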

How the data were processed

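Long reads were aligned with minimap2 2.24-r1122 to mm10, per the submitters' processing notes. How transcripts were assembled, quantified and counted by strand is not given in the sources used here. The deposited transcript table holds TPM, and the deposited gene table holds CPM, both made by the authors. TPM times length, and CPM, were whole multiples of 1 read per library for 100% of values (tolerance 0.02). The authors' classification table gave category, exons, CAGE support and, as percent, the A content after the end. A total of 13 gene-table columns matched no sample and were not used.

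limma 3.58.1 (R 4.3.3) was fitted to log2(TPM + 1), or log2(CPM + 1), over each whole table. Features with at least 1 TPM or CPM in as many libraries as the smaller arm were tested. A call needed a Benjamini-Hochberg adjusted p under 0.05 and an absolute log2 difference of at least 1. R9 against R10 had the condition as a block, the time course an additive factor system, and the media comparison the pair. edgeR 4.0.16 on the recovered reads was an added alternative, chosen after seeing the data, as were the own-locus rows. The scripts were tested on simulated data. Hosts came from GENCODE M21 and sequences from RefSeq (GRCm38.p6) or the classification table. Tables were read with Python 3.11.15.

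The members, lists and alternatives were chosen with earlier results of these data known. Named members were the 10 of highest mean TPM, up to 10 called in each direction for stem cells against progenitors, up to 8 for R9 against R10, up to 6 in the other comparisons, those called in both chemistries, and tested members in hosts of the lists. The Invs locus and the Ndufaf2 and Morc3 members were chosen after their values were seen. Some members that the rule names are not reported here, though they are in the counts.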

Additional observations from a re-analysis of the deposited data

Results flagged for a closer look

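Of 32 members tested for a library standing apart among the 7 R10 stem cell libraries, 7 were flagged. A flag needed a gap to the next library of more than 0.568 of the range. The libraries came from several lines and both library sets, and all members share them, so no chance rate is set beside the count. In 6 of the 7 it was the unnumbered R1 library, the only stem cell library without a description. It was highest for the members of Filip1l (2023 TPM, next 1151), Ccdc171 (20.3 TPM, next 12.4), Slc19a1 (111 TPM, next 40.7) and Il11ra1 (351 bases, 80.1 TPM, next 32.0). It was lowest for the members of Cdk8 (21550.5 TPM, next 52793) and Ccr9 (20.1 TPM, next 49.8). The progenitor genes summed to 41.8 CPM in it and to 6.12 to 11.6 CPM in the 6 numbered stem cell libraries, and the part of these genes was not tested. The other was the 824-base Gm28836 member, with 6.90 TPM in replicate 2 of R1c3 and 3.31 TPM in the next library.

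The limma interaction term (difference between stem cells and progenitors on log2(TPM + 1), R9 minus R10) was called for 11 members, of which 7 are named members. These were Slc27a1 (3.36), Olfr814 (3.15), Spon1 (2.30), Gm28308 (2.23), the 824-base Gm28836 member (1.90), Ccdc171 (-1.95) and Vps26c (-2.29). The Slc27a1, Spon1, Gm28308 and Vps26c members were at 0 TPM in all 6 R9 libraries, so their values restate the R10 difference and do not show that the chemistries differ. The Gm28836 member was called higher in stem cells in both chemistries, and the Ccdc171 member in R10 only.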

How the results depend on the processing

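Of 778 alternative values for 46 results on named members, 676 kept direction and side of the threshold and 102 kept the direction only. Where no cause is named below, the cause was not tested. Counts of called members were 32 in R10, with 11 at a minimum of 5 TPM, 16 with both chemistries in 1 fit, and 32 to 37 leaving out 1 library. For these and the next alternatives, unless given, no share of all transcripts stands beside the count. The counts therefore do not set the members apart from the whole table. In R9 the count of 9 became 5 at a minimum of 5 TPM, 0 by edgeR on the recovered reads and 14 for members counted by their own loci (8 loci of 42, beside 36% of all genes), and 9 to 22 leaving out 1 library. For R9 against R10 the count of 10 became 23 with no filter, 5 at a minimum of 5 TPM, 17 with median centring, 6 with no condition block and 29 by own loci. It was 7 to 12 leaving out 1 condition. The time course count of 0 became 1 at a minimum of 5 TPM, 1 with median centring, 4 with no factor system term, 3 by edgeR and 6 by own loci. It stayed at 0 leaving out 1 day. The media count of 1 became 0 with no filter, 0 at a minimum of 5 TPM, 0 by edgeR and 7 by own loci, and was 0 to 1 leaving out 1 pair. The wild-type medium count of 19 became 1 with no filter, 10 at a minimum of 5 TPM, 7 with median centring and 2 by edgeR, and 0 to 53 leaving out 1 library. With the replicate block it became 40; same-numbered wild-type libraries had deviations correlated at 0.193 over 57997 transcripts in 2 pairs, which is too few to say whether the numbers pair the libraries. With median centring, all transcripts had a median difference shifted from 0.17 to 0.32 in R10, from 0.08 to 0.30 in R9 and from 0.10 to -0.10 for the wild-type medium.

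The summed TPM of stem cells over progenitors in R10 was 1.74 in log2 (1.66 to 1.92 leaving out 1 library) and had the other sign at -0.54 without the 10 members of highest mean TPM, to -0.61 with members within a CAGE peak only and to -0.16 without the Cdk8 and Filip1l members. The R9 value was 0.15 (0.02 to 0.34 leaving out 1 library), and R9 against R10 was -4.83 (-5.07 to -4.64 leaving out 1 condition). The median member had 15 reads over 45 libraries, and 233 of 300 members did not pass the filter in R10 and 251 in R9. The number tested follows the filter rule, with 112 tested in the wild-type comparison, which needed fewer libraries.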

Other observations

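Members not described above include the 532-base transcript in intron 4 of Tipin, a replication fork protection gene. It was at 3.93 and 3.97 TPM in R9 stem cells and 0 in R9 progenitors (2.31 ± 0.17, limma, adjusted p 0.000821). Its host rose by 1.11 in log2(CPM + 1). Each of the 2 stem cell values stands for 1 read, and the transcript had 8 reads over all 45 libraries. In R10 it was above 0 in 2 of 7 stem cell libraries. The 330-base Gm32884 member was at 2.27 to 14.2 TPM in the 7 R10 stem cell libraries and 0 in R10 progenitors (3.21 ± 0.38, limma, adjusted p 1.69e-05). In R9 it was at 31.7 TPM in 1 stem cell library and 0 in the other.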
